A study of Mus musculus with 8 samples.

Results

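The genes described here are 10 transcription factors that pattern the neural tube from its dorsal to its ventral side: Foxa2, Nkx2-2, Nkx2-9, Olig2, Nkx6-1, Nkx6-2, Dbx1, Dbx2, Irx3 and Pax6. They were chosen by name, with earlier results of these data known, so the share of the 10 that passed a test is given beside the share of all genes as a description. All 10 were found among the 55421 genes of the table. All 10 also passed the filter used for testing, which kept the 16699 genes that reached 1 TPM in 2 or more libraries. TPM divides the reads of a gene by its length and then scales each library to the same total.

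Poly-A RNA was sequenced from mouse embryos at E9.25, when they had 9 to 11 somites, in 4 groups of 2 libraries. Gcnf_A was the anterior piece (pharyngeal arch 1 and everything in front of it) of Gcnf-/- embryos, and Gcnf_P was the posterior piece (pharyngeal arch 2 and everything behind it) of Gcnf-/- embryos. WT_A and WT_P were the same 2 pieces of wild-type embryos. Gcnf is the germ cell nuclear factor, an orphan nuclear receptor encoded by Nr6a1, and the mutants were homozygous. No strain and no description of the allele is given in the labels.

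In the embryonic neural tube, Sonic hedgehog secreted by the notochord and the floor plate sets up a gradient that is high ventrally. Factors repressed by the signal, such as Pax6, Irx3, Dbx1 and Dbx2, occupy more dorsal or intermediate domains, and factors induced by it, such as Nkx2-2, Nkx2-9, Olig2, Nkx6-1, Nkx6-2 and the floor plate factor Foxa2, occupy ventral ones. Neighbouring factors repress each other, which sharpens the borders between the progenitor domains that later give rise to distinct classes of neurons.

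The promoters of 4 of the genes are shown because these 4 carry the largest anterior fall of a ventral factor, the anterior rise, and the differences between the regions reported below. Each sequence is the 250 bases before the RefSeq transcript start on GRCm38.p6, read 5′ to 3′ on the strand of the gene. Capitals mark a match, on either strand, to the GLI core CCACCCA, the TATA box TATAAA or the CCAAT box. Nkx6-1 held none of the motifs searched.
Nkx2-9, chr12:56613285-56613534, minus strand: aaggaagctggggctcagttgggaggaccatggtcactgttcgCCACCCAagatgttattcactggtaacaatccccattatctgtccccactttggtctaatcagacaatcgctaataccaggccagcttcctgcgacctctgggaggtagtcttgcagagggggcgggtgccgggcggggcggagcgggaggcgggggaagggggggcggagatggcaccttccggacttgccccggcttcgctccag
Nkx6-1, chr5:101664712-101664961, minus strand: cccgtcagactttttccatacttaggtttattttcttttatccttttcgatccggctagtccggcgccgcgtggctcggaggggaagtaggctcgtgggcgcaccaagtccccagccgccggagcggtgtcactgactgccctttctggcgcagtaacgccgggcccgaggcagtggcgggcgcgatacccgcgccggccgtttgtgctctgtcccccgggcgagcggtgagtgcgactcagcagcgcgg
Nkx6-2, chr7:139582798-139583047, minus strand: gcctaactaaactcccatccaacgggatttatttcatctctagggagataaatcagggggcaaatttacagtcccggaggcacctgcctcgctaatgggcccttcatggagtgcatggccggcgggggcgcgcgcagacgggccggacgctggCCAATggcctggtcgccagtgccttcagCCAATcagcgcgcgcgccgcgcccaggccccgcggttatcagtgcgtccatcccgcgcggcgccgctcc
Dbx1, chr7:49636836-49637085, minus strand: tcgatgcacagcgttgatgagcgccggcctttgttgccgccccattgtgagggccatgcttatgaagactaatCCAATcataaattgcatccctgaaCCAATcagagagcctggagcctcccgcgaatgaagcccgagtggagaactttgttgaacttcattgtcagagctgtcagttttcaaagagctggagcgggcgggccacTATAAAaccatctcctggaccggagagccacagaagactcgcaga

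GLI proteins are the transcription factors at the end of the hedgehog pathway, and the GLI core was found in the promoters of 2 of the 10 genes, Nkx2-9 and Olig2, against 8.11% of 32851 promoter windows of the same length. The longer GLI site GACCACCCA, which contains the core, was in 0 of the 10 and in 0.225% of all windows. The nuclear receptor half-site AGGTCA was in 0 of the 10 and in 14% of all windows. The direct repeat of this half-site with no spacer, known as the binding motif of GCNF, was in 0 of the 10 and in 0.00609% of all windows. The TATA box was in 3 of the 10 genes (Dbx1, Foxa2 and Olig2) and in 12.4% of all windows. The CCAAT box was in 5 of the 10 (Dbx1, Foxa2, Nkx6-2, Olig2 and Pax6) and in 33.8% of all windows. Foxa2 had 3 transcript starts and Pax6 had 2, so the 10 genes had 13 windows. A match describes only the letters of this window, and no match says nothing of binding elsewhere.

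By reads recovered from the TPM values, depth in genes was 27061599 to 52952690 reads per library, and 3 reads in a gene of 1 kb were worth 0.1996 to 0.4032 TPM, a limit that covers counting error only. In both regions the mutant library numbered 159 had Xist (25.3 and 30.9 TPM) and the mutant library 163 and all 4 wild-type libraries had Ddx3y of the Y chromosome (26.2 to 39.4 TPM), so sex was not balanced between the genotypes. The 2 mutant libraries of a region therefore came from different embryos, and libraries with the same number had the same sex in both regions. For the wild-type libraries neither the labels nor these genes say whether they were different embryos, so their spread may not be that between embryos. The WT_A libraries 153 and 156 did differ widely in some genes, such as Egr2 with 6.87 and 0.338 TPM (219 and 11 reads). Nr6a1 itself had 240 and 202 TPM in Gcnf_A, against 194 and 205 TPM in WT_A, and 158 and 116 TPM in Gcnf_P, against 157 and 165 TPM in WT_P. Its level therefore does not check the genotype labels, since which exons the allele lacks is not known here. The summed level of 7 primitive blood genes was 22062 to 43828 TPM in the 4 mutant libraries and 4213 to 9863 TPM in the 4 wild-type libraries. Each library sums to 1000000 TPM. Because TPM is relative, a larger share of 1 class lowers all other values in proportion to that share. In whole pieces of embryo, fewer cells of a type and less RNA per cell cannot be told apart.

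In the anterior piece, 5 of the 6 ventral factors fell in the mutant and the intermediate factor Dbx1 rose. In the limma fit across 16699 genes with Benjamini-Hochberg adjustment and a threshold of 0.05, 6 of the 10 genes passed, 1 higher and 5 lower, where 23.6% of all genes tested passed (13.3% higher and 10.2% lower). Nkx2-9, Nkx2-2, Nkx6-1, Nkx6-2 and Foxa2 fell and Dbx1 rose. The median log2 difference of the 10 genes was -0.73, beside 0.02 over all genes tested. In 9 of the 10 genes, all but Dbx2, the 2 mutant libraries lay apart from the 2 wild-type libraries, which was also true of 67.3% of all genes tested.

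**Figure D1:**
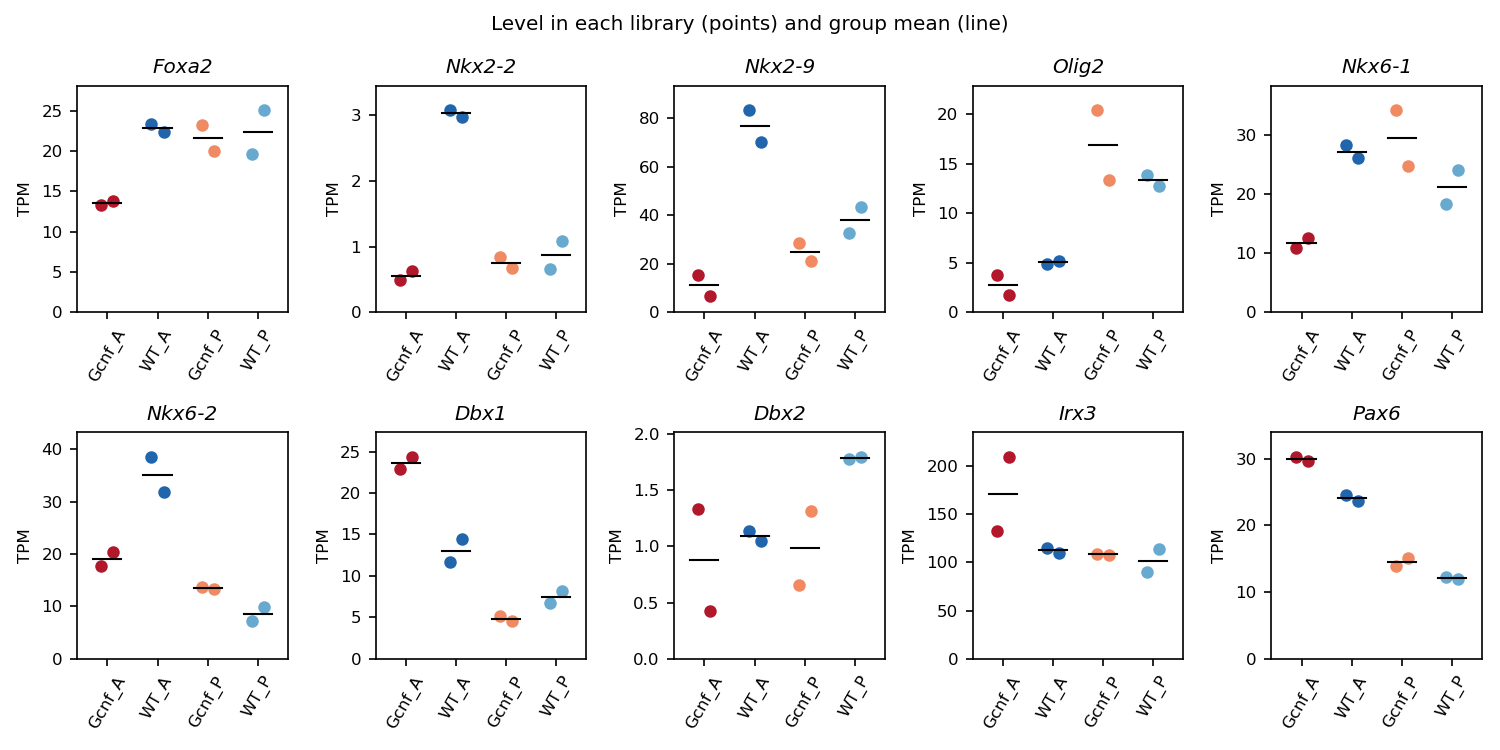
Level in TPM (y axis, linear, from 0) of each of the 10 genes in the 8 libraries (points), by group (x axis), with the group mean as a line. Both Gcnf_A libraries of Nkx2-9 (15.4 and 6.83 TPM) sit far below both WT_A libraries (83.2 and 70.1 TPM), and Dbx1 is the reverse (22.9 and 24.4 against 11.7 and 14.4 TPM).

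Nkx2-9, a ventral homeodomain factor of the Nkx2 family that lies at chr12:56611389-56613284 on mm10, had 15.4 and 6.83 TPM in Gcnf_A, against 83.2 and 70.1 TPM in WT_A. Both mutant libraries were low, and they differed from each other by more than 2-fold while the groups stayed far apart. The mean was 11.1 ± 6.1 TPM in Gcnf_A and 76.7 ± 9.3 TPM in WT_A (SD, n = 2 each), which is 6.89-fold lower. The log2 difference was -2.77 ± 0.31 (SE), with an adjusted p of 0.00064 in limma.

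Nkx2-2, which specifies the progenitors next to the floor plate and lies at chr2:147177546-147194243, was a low gene with 0.49 and 0.624 TPM in Gcnf_A, against 3.08 and 2.98 TPM in WT_A. These values stood for 14 and 16 reads in Gcnf_A and for 83 and 82 reads in WT_A, so the 2 wild-type libraries were nearly equal and both above the mutant ones. The antisense gene Nkx2-2os, which shares 278 of its 2875 exonic bases, had at most 0.0309 TPM. The mean was 5.44-fold lower in the mutant, with a log2 difference of -1.37 ± 0.19 (limma adjusted p = 0.002).

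Nkx6-1, which defines ventral progenitors including those of motor neurons and lies at chr5:101658139-101664996, had 10.9 and 12.6 TPM in Gcnf_A, against 28.3 and 26.1 TPM in WT_A. The groups did not overlap, and the mean was 2.31-fold lower in the mutant, with a log2 difference of -1.14 ± 0.18 (limma adjusted p = 0.003). Its relative Nkx6-2, at chr7:139579376-139582797, had 17.7 and 20.4 TPM in Gcnf_A, against 38.6 and 31.8 TPM in WT_A. It was 1.85-fold lower, with a log2 difference of -0.85 ± 0.16 (limma adjusted p = 0.0062). The libraries do not mark strand, and Nkx6-2 shares 246 of its 1907 exonic bases with the oppositely oriented Inpp5a, which had 22.8 to 32 TPM in the 8 libraries, so reads from the shared bases cannot be separated.

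Foxa2, the factor that defines the floor plate and that is also made in the notochord and the gut endoderm, lies at chr2:148042877-148046969. It had 13.3 and 13.8 TPM in Gcnf_A, against 23.4 and 22.4 TPM in WT_A. Replicates were within 1 TPM of each other in both groups, and the mean was 1.69-fold lower in the mutant, with a log2 difference of -0.72 ± 0.13 (limma adjusted p = 0.0066). Because Foxa2 is expressed outside the neural tube, the level of 13 definitive endoderm genes was read beside it: Epcam rose and Foxa1, Nkx2-1 and Trh fell, with a summed level of 781 and 923 TPM in Gcnf_A and 1023 and 937 TPM in WT_A. Krt18, Cldn6, Epcam and Krt8 made up most of that sum (240, 188, 166 and 105 TPM in Gcnf_A library 159), so it mainly follows these genes. The part of the endoderm in the Foxa2 difference was not tested.

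Olig2, the basic helix-loop-helix factor of motor neuron progenitors at chr16:91225457-91228677, had 3.7 and 1.73 TPM in Gcnf_A, against 4.89 and 5.16 TPM in WT_A. Its mean was 1.85-fold lower in the mutant, but the difference of -0.75 ± 0.26 did not pass (95% interval -1.35 to -0.15, limma adjusted p = 0.072). The 2 mutant libraries, at 93 and 39 reads, were farther from each other than the higher one was from the wild-type libraries.

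Among the factors repressed by hedgehog signalling, Dbx1 was the one that passed. Dbx1 specifies the progenitors of ventral interneurons at the middle of the neural tube and lies at chr7:49631499-49636849. It had 22.9 and 24.4 TPM in Gcnf_A, against 11.7 and 14.4 TPM in WT_A, so both mutant libraries were above both wild-type libraries. The mean was 1.81-fold higher in the mutant, with a log2 difference of 0.81 ± 0.14 (limma adjusted p = 0.0053).

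Pax6, a paired-box factor that sets the ventral limit of its own domain against Nkx2-2 and that is also needed in the forebrain and eye, lies at chr2:105668900-105697364. It had 30.3 and 29.7 TPM in Gcnf_A, against 24.5 and 23.6 TPM in WT_A, and the difference of 0.31 ± 0.10 did not pass (95% interval 0.08 to 0.53, limma adjusted p = 0.059). Irx3, an Iroquois factor at chr8:91798525-91802067 that borders the Olig2 domain dorsally, had 133 and 210 TPM in Gcnf_A, against 115 and 110 TPM in WT_A. Its difference of 0.57 ± 0.19 did not pass either (95% interval 0.13 to 1.01, limma adjusted p = 0.064), and the spread within Gcnf_A was wider than the gap of its lower library to WT_A. Irx3 shares 124 of its 2762 exonic bases with the antisense gene Irx3os, which had 1.75 to 2.74 TPM.

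Dbx2, the paralogue of Dbx1 at chr15:95623563-95655960, had 1.33 and 0.42 TPM in Gcnf_A, against 1.14 and 1.05 TPM in WT_A. The groups overlapped, at 46 and 13 reads in Gcnf_A and 37 and 35 reads in WT_A, and the difference was -0.20 ± 0.27 (limma adjusted p = 0.63).

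The anterior calls of Nkx2-9, Nkx2-2 and Nkx6-1 held whichever 1 library was left out. Those of Nkx6-2, Dbx1 and Foxa2 were lost without the WT_A library 153, with adjusted p of 0.057, 0.054 and 0.054, which leaves 3 calls, and Irx3 gained a call without the Gcnf_A library 159 (0.011). Without both libraries numbered 153, Nkx2-9 alone passed. The 3 genes nearest the threshold gained calls under several alternatives. The fall of Olig2 passed in 7 of 20: without Gcnf_A library 159 (0.022), both libraries numbered 159 (0.009) or either Gcnf_P library (0.046 each), with library weights (0.033), with a filter at 5 TPM (0.047) and with the Sox scaling given next (0.0019). The rise of Irx3 also passed without both libraries numbered 159 (0.016), with library weights (0.032) and with the 5 TPM filter (0.039), and that of Pax6 with median-of-ratios scaling (0.035), library weights (0.029) and the 2 groups alone (0.044).

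Of 11 markers of neural progenitors, 4 rose and 0 fell in front, where 13.3% of all genes tested rose and 10.2% fell. Their median was 0.42 beside 0.02 over all genes, and their summed level was 1318 and 1578 TPM in Gcnf_A and 988 and 1022 TPM in WT_A. Fabp7 made up a large part of that gap, with 243 and 293 TPM in Gcnf_A against 33.4 and 63.9 TPM in WT_A. Sox2 (log2 difference 0.03), Sox3 (0.11) and Cdh2 (0.01) were among those not called. With each library scaled to the neural progenitor factors Sox1, Sox2 and Sox3, the 5 falls kept their calls, the rise of Dbx1 became 0.50 (adjusted p = 0.089), and Pax6 turned to -0.008. That scaling moved the median of all genes by -0.314, and 1 of its 3 genes, Sox1, was itself among those that rose (log2 difference 0.81, limma adjusted p = 0.0065).

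In the posterior piece, where 11.5% of all genes tested passed (8.56% higher and 2.93% lower), 2 of the 10 genes passed, Nkx6-2 higher and Dbx1 lower. Both directions are opposite to the anterior ones. The median of the 10 genes was 0.03, beside 0.05 over all genes tested. In 6 of the 10 genes the libraries of both groups lay apart, against 53.2% of all genes.

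**Figure D2:**
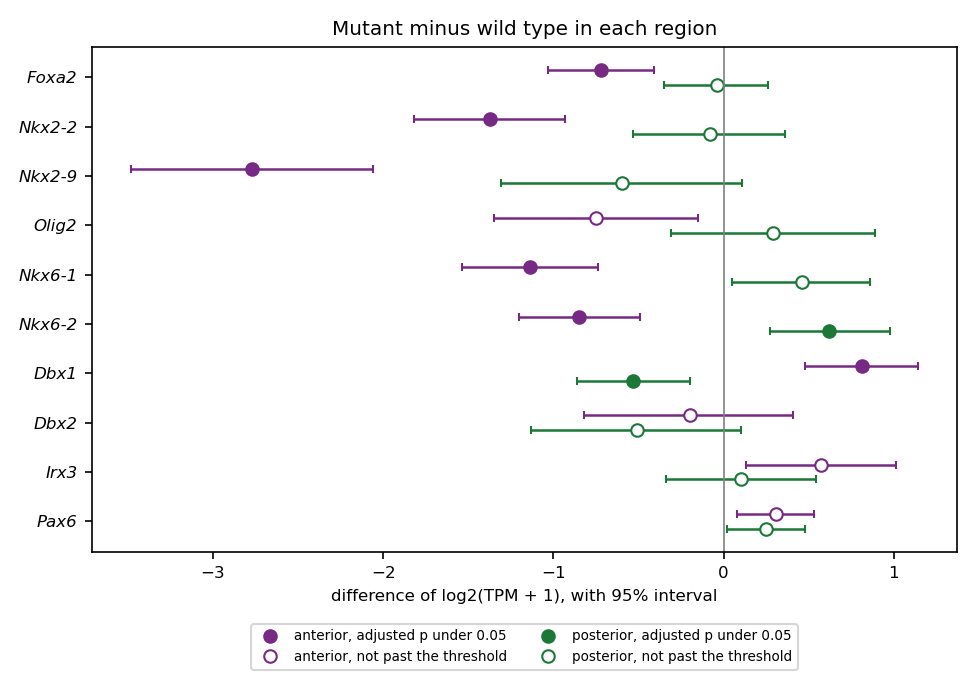
Genotype effect on each of the 10 genes as the log2(TPM + 1) difference of mutant minus wild type (x axis) with its 95% interval, for the anterior and the posterior piece. Filled points passed an adjusted p of 0.05: the 5 anterior falls from -2.77 to -0.72 and the anterior rise of Dbx1 at 0.81, beside posterior values of 0.62 for Nkx6-2 and -0.53 for Dbx1.

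Nkx6-2 had 13.7 and 13.3 TPM in Gcnf_P, against 7.26 and 9.77 TPM in WT_P. Both mutant libraries were above both wild-type libraries, and the mean was 1.59-fold higher, with a log2 difference of 0.62 ± 0.16 (95% interval 0.27 to 0.98, limma adjusted p = 0.038). The overlapping gene Inpp5a was also higher here, at 32 and 30.9 TPM in Gcnf_P, against 24 and 25 TPM in WT_P. The part of its reads in the rise of Nkx6-2 was not tested. Dbx1 had 5.12 and 4.54 TPM in Gcnf_P, against 6.75 and 8.16 TPM in WT_P, so here both mutant libraries were the lower ones. The mean was 1.54-fold lower, with a log2 difference of -0.53 ± 0.14 (95% interval -0.86 to -0.20, limma adjusted p = 0.048).

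Nkx6-1 had 34.2 and 24.8 TPM in Gcnf_P, against 18.3 and 24 TPM in WT_P. The groups did not overlap, but by less than 1 TPM, and the difference of 0.46 ± 0.18 did not pass (95% interval 0.05 to 0.86, limma adjusted p = 0.13). Nkx2-9 had 28.5 and 21 TPM in Gcnf_P, against 32.6 and 43.3 TPM in WT_P. The mutant libraries were again the lower ones, with a difference of -0.60 ± 0.31 that did not pass (limma adjusted p = 0.25). Dbx2 had 0.652 and 1.32 TPM in Gcnf_P, against 1.78 and 1.8 TPM in WT_P, 1.82-fold lower in the mutant and not past the threshold (-0.51 ± 0.27, limma adjusted p = 0.26). It rested on 34 to 88 reads per library.

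The other 5 genes did not pass in the posterior piece. Foxa2 had 23.3 and 20 TPM in Gcnf_P, against 19.7 and 25.1 TPM in WT_P, with a difference of -0.04 ± 0.13 (95% interval -0.35 to 0.26, limma adjusted p = 0.88). Olig2 had 20.4 and 13.3 TPM in Gcnf_P, against 13.9 and 12.7 TPM in WT_P (0.29 ± 0.26, limma adjusted p = 0.52), and its mutant libraries straddled the higher wild-type one. Nkx2-2 stayed low in both groups, at 0.833 and 0.677 TPM in Gcnf_P, against 0.655 and 1.09 TPM in WT_P (-0.08 ± 0.19, limma adjusted p = 0.82). Pax6 was 13.9 and 15.1 TPM in Gcnf_P, against 12.3 and 11.9 TPM in WT_P (0.25 ± 0.10, limma adjusted p = 0.15), with both mutant libraries slightly above. Irx3 was 109 and 108 TPM in Gcnf_P, inside the 2 WT_P libraries at 89.6 and 114 TPM (0.10 ± 0.19, limma adjusted p = 0.78).

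Neither posterior call was firm, and each was lost in 14 of 20 alternatives. That of Dbx1 was lost without any 1 of the 8 libraries (adjusted p = 0.063 to 0.2). That of Nkx6-2 was lost without either Gcnf_A library (0.052 each), Gcnf_P library 159 (0.094), Gcnf_P library 163 (0.089) or WT_P library 153 (0.21). Of 11 neural progenitor genes 6 rose and 0 fell behind, where 8.56% of all genes tested rose and 2.93% fell. Their summed level was 923 TPM in both Gcnf_P libraries and 516 and 572 TPM in WT_P. Fabp7 again made up a large part of the gap, with 177 and 227 TPM in Gcnf_P against 7.42 and 20.5 TPM in WT_P. Scaled to Sox1, Sox2 and Sox3, which moved the median of all genes by -0.413, the value of Nkx6-2 became 0.21 (adjusted p = 0.47), while Dbx1 stayed past the threshold at -0.945, joined by Nkx2-9 (-1.012) and Dbx2 (-0.926). Sox1 (log2 difference 0.75, limma adjusted p = 0.017) and Sox2 (log2 difference 0.38, adjusted p = 0.031) of the scaling were among the posterior rises.

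The difference between both genotype effects, anterior minus posterior, was tested directly. It passed for 3 of the 10 genes, where 1.01% of all genes tested passed (0.413% higher and 0.599% lower). Nkx6-1 differed by -1.60 ± 0.25 (limma adjusted p = 0.026), Nkx6-2 by -1.47 ± 0.22 (adjusted p = 0.024) and Dbx1 by 1.35 ± 0.20 (adjusted p = 0.024). The median of the 10 genes was -0.86, beside -0.04 over all genes tested. Nkx6-1 was thus lower in the mutant anterior piece relative to its posterior effect, Nkx6-2 likewise, and Dbx1 the opposite. Nkx2-9 (-2.17 ± 0.44, adjusted p = 0.068) and Nkx2-2 (-1.29 ± 0.28, adjusted p = 0.078) did not pass, and neither did Olig2 (-1.04 ± 0.37, adjusted p = 0.29), Foxa2 (-0.68 ± 0.19, adjusted p = 0.17), Irx3 (0.47 ± 0.27, adjusted p = 0.53), Dbx2 (0.31 ± 0.38, adjusted p = 0.79) and Pax6 (0.06 ± 0.14, adjusted p = 0.91).

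These 3 calls depended on single libraries. All 3 were lost without Gcnf_A library 159 (adjusted p = 0.075 to 0.1), Gcnf_A library 163 (0.065 to 0.089), WT_A library 153 (0.085 to 0.094), WT_P library 153 (0.094 to 0.14) or WT_P library 156 (0.062 to 0.13). Nkx6-1 was also lost without WT_A library 156 (0.069). With a replicate block on the library numbers, Dbx1 kept its call (adjusted p = 0.033), while Nkx6-1 and Nkx6-2 lost theirs (0.064 each). Both were also lost with median-of-ratios scaling (0.064 and 0.052), and all 3 with no filter (0.1 to 0.12). Nkx2-9 passed without Gcnf_A library 159 (-2.706, adjusted p = 0.027), with the Sox scaling (0.00011), with the 5 TPM filter (0.026) and with the replicate block (0.04), and Nkx2-2 passed with no trend of the spread (0.034). With 1 library left in a group, that library is assumed to vary like the others.

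Repression between neighbouring factors is described in textbooks for the pairs Pax6 and Nkx2-2, Dbx1 and Nkx6-2, Dbx2 and Nkx6-1, and Irx3 and Olig2, so the ratio of the TPM of the 2 factors was computed in each library. Pax6 over Nkx2-2 was 61.8 and 47.6 in Gcnf_A, against 7.96 and 7.94 in WT_A. It was 16.7 and 22.3 in Gcnf_P, against 18.7 and 10.9 in WT_P. The anterior mutant ratios thus lay above those of all 6 other libraries.

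Dbx1 over Nkx6-2 was 1.29 and 1.19 in Gcnf_A, against 0.304 and 0.453 in WT_A, and it was 0.374 and 0.341 in Gcnf_P, against 0.93 and 0.835 in WT_P. The ratio was above 1, meaning more Dbx1 than Nkx6-2, in the 2 Gcnf_A libraries and in no other. The order of the genotypes was opposite in both regions. Irx3 over Olig2 was 36.1 and 121 in Gcnf_A, against 23.5 and 21.2 in WT_A, and 5.32 and 8.17 in Gcnf_P, against 6.44 and 8.95 in WT_P, so the groups overlapped in the posterior piece. Dbx2 over Nkx6-1 was 0.122 and 0.0332 in Gcnf_A, on both sides of 0.0402 and 0.0404 in WT_A, and 0.019 and 0.0532 in Gcnf_P, below 0.0972 and 0.0752 in WT_P. These ratios are descriptions and repeat the values above. Their size also depends on the gene lengths that TPM divides by, which are the same in all libraries.

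**Figure D3:**
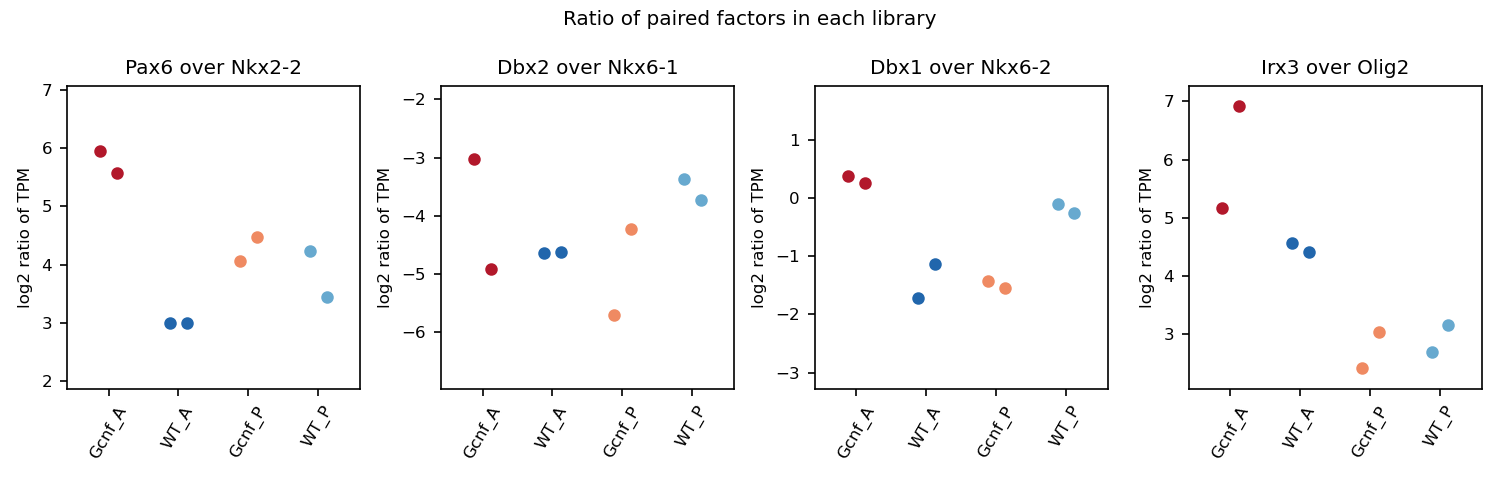
Log2 ratio of the TPM of paired factors (y axis) in each of the 8 libraries (points), by group (x axis); every panel spans the same range of log2 units. Gcnf_A stands above WT_A for Pax6 over Nkx2-2 (61.8 and 47.6 against 7.96 and 7.94, before the log) and for Dbx1 over Nkx6-2, where Gcnf_P stands below WT_P.

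Between the regions of the mutant, Gcnf_P against Gcnf_A, 6 of the 10 genes passed, 4 higher and 2 lower, where 16.1% of all genes tested passed (8.01% higher and 8.1% lower). Olig2 was 6.21-fold higher in Gcnf_P (2.29 ± 0.26, limma adjusted p = 0.00052), Nkx6-1 2.51-fold (1.24 ± 0.18, adjusted p = 0.0017), Nkx2-9 2.22-fold (1.17 ± 0.31, adjusted p = 0.035) and Foxa2 1.6-fold (0.64 ± 0.13, adjusted p = 0.012). Dbx1 was 4.89-fold lower (-2.08 ± 0.14, adjusted p = 2.5e-05) and Pax6 2.06-fold lower (-0.998 ± 0.10, adjusted p = 0.00024). The median of the 10 was 0.14, beside -0.04 over all genes, and the libraries lay apart for 9 of the 10 and for 52.1% of all genes.

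Between the regions of the wild type, WT_P against WT_A, 5 of the 10 passed, 1 higher and 4 lower, where 14.5% of all genes tested passed (7.86% higher and 6.65% lower). Olig2 was 2.65-fold higher in WT_P (1.25 ± 0.26, limma adjusted p = 0.014). Nkx6-2 was 4.14-fold lower (-1.94 ± 0.16, adjusted p = 7.4e-05), Nkx2-2 3.47-fold lower (-1.12 ± 0.19, adjusted p = 0.0054), Pax6 1.99-fold lower (-0.94 ± 0.10, adjusted p = 0.00041) and Dbx1 1.75-fold lower (-0.73 ± 0.14, adjusted p = 0.0099). The median of the 10 was -0.54, beside -0.10 over all genes, and the libraries lay apart for 8 of the 10 and for 63.1% of all genes.

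**Figure D4:**
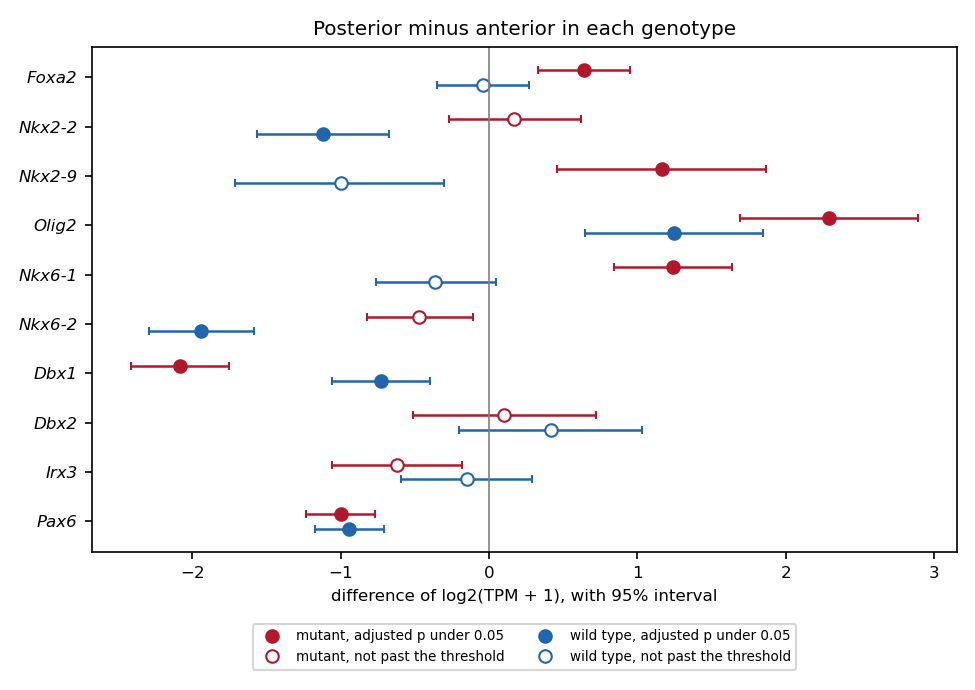
Region effect on each of the 10 genes as the log2(TPM + 1) difference of posterior minus anterior (x axis) with its 95% interval, for mutant embryos and for wild-type embryos; filled points passed an adjusted p of 0.05. Pax6 is nearly equal in both genotypes (-0.998 and -0.94), whereas Nkx2-9 is at 1.17 in the mutant and at -1.004, not past the threshold, in the wild type.

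Nkx2-9, Nkx6-1, Nkx2-2 and Foxa2 had opposite signs in the genotypes, each with 1 of the 2 values not past the threshold. Those not past it were the wild-type values of Nkx2-9 (-1.004 ± 0.31, limma adjusted p = 0.065), Nkx6-1 (-0.36 ± 0.18, adjusted p = 0.22) and Foxa2 (-0.04 ± 0.13, adjusted p = 0.88). For Nkx2-2 it was the mutant value (0.17 ± 0.19, adjusted p = 0.63). The contrast of the region effects is the same test as the difference of genotype effects above. In the mutant, Nkx2-9 lost its call in 12 of 21 alternatives, among them no filter (adjusted p = 0.14), median-of-ratios scaling (0.059), quantile scaling (0.062), no trend (0.063), library weights (0.059) and the 2 groups alone (0.13). It also lost it without both libraries numbered 153 (adjusted p = 0.13), Gcnf_A library 163 (0.15), Gcnf_P library 159 (0.12), Gcnf_P library 163 (0.05, rounded), WT_P library 153 (0.069) or WT_P library 156 (0.068). Foxa2 lost its call without Gcnf_A library 159 (0.072), Gcnf_A library 163 (0.057) or Gcnf_P library 159 (0.054), and Irx3 gained one without Gcnf_A library 159 (0.0089). In the wild type, Olig2 lost its call without any 1 of the 4 wild-type libraries (0.059 without WT_A 153, 0.056 without WT_A 156, 0.099 without WT_P 153 and 0.087 without WT_P 156), Dbx1 lost its call without WT_A 156 (0.1) or WT_P 153 (0.077), and Nkx2-9 gained one in 7 of 21 alternatives, among them the replicate block (0.022), the 2 groups alone (0.011) and leaving out Gcnf_A library 159 or 163 (0.013 each).

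Neural progenitor genes were at a lower summed level in the posterior pieces. The 11 genes summed to 923 TPM in both Gcnf_P libraries and 1318 and 1578 TPM in Gcnf_A, and to 516 and 572 TPM in WT_P and 988 and 1022 TPM in WT_A. Scaling to Sox1, Sox2 and Sox3 moved the median of all genes by 1.205 between mutant and 1.304 between wild-type pieces, and 15615 and 16036 of 16699 genes were then called higher behind. A rise under it is thus the general pattern, and the changes of sign given next run the same way as that shift. Under it the fall of Pax6 became 0.207 in mutant and 0.366 in wild-type embryos, and the wild-type falls of Nkx2-2 and Dbx1 became 0.189 and 0.571. Against the shift, the fall of Dbx1 in the mutant and the fall of Nkx6-2 in the wild type kept their direction and their call, where 128 and 95 genes were called lower. The 2 WT_A libraries also differed in genes of tissue near or behind the cut: Egr2, a hindbrain segment gene, had 6.87 TPM in library 153 and 0.338 TPM in library 156, and 9 visceral endoderm genes summed to 163 and 28 TPM. The part of either in the differences of WT_A was not tested.

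The level order of the genes in TPM was led by Irx3 in every group. TPM here is per length of all annotated exons of a gene together. That length was 11694 bases for Pax6 and 1264 to 3469 bases for the others. A transcript that holds only part of these exons gets too low a TPM, so the place of Pax6 in the order may be too low. In Gcnf_A, Irx3 (172 ± 54 TPM) was followed by Pax6 (30 ± 0.43), Dbx1 (23.6 ± 1.1), Nkx6-2 (19.1 ± 1.9), Foxa2 (13.5 ± 0.34), Nkx6-1 (11.8 ± 1.2), Nkx2-9 (11.1 ± 6.1), Olig2 (2.71 ± 1.4), Dbx2 (0.877 ± 0.65) and Nkx2-2 (0.557 ± 0.095), all as mean and SD of 2 libraries. Neighbours lay apart except Nkx6-1 and Nkx2-9, and Dbx2 and Nkx2-2. In WT_A, Irx3 (112 ± 3.8 TPM) was followed by Nkx2-9 (76.7 ± 9.3), Nkx6-2 (35.2 ± 4.8), Nkx6-1 (27.2 ± 1.5), Pax6 (24.1 ± 0.61), Foxa2 (22.9 ± 0.69), Dbx1 (13.1 ± 1.9), Olig2 (5.02 ± 0.19), Nkx2-2 (3.03 ± 0.071) and Dbx2 (1.09 ± 0.059). Nkx2-9 thus stood second in WT_A and seventh in Gcnf_A.

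In Gcnf_P, Irx3 (109 ± 0.35 TPM) was followed by Nkx6-1 (29.5 ± 6.7), Nkx2-9 (24.7 ± 5.3), Foxa2 (21.7 ± 2.3), Olig2 (16.8 ± 5.1) and Pax6 (14.5 ± 0.82), whose neighbours overlapped, and then by Nkx6-2 (13.5 ± 0.27), Dbx1 (4.83 ± 0.41), Dbx2 (0.986 ± 0.47) and Nkx2-2 (0.755 ± 0.11). In WT_P, Irx3 (102 ± 17 TPM) was followed by Nkx2-9 (38 ± 7.5), Foxa2 (22.4 ± 3.8), Nkx6-1 (21.2 ± 4), Olig2 (13.3 ± 0.84), Pax6 (12.1 ± 0.27), Nkx6-2 (8.52 ± 1.8), Dbx1 (7.46 ± 1), Dbx2 (1.79 ± 0.015) and Nkx2-2 (0.872 ± 0.31). Dbx2 and Nkx2-2 were the lowest of the 10 in each group.

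The hedgehog pathway genes outside the 10 were read beside them. Over all genes tested, 13.3% rose and 10.2% fell in front, and 8.56% rose and 2.93% fell behind, and the counts of the lists below stand against these shares. Rises made up 56.6% of all anterior calls and 74.5% of all posterior calls. With median-of-ratios scaling these shares were 51.9% and 55.2%, and with quantile scaling 47.3% and 53.9%. Of 14 such genes, 2 rose and 2 fell in the anterior piece of the mutant (median -0.07, beside 0.02 over all genes) and 4 rose and 0 fell in its posterior piece (0.26, beside 0.05). Shh, the ligand itself, fell anteriorly, with 23.4 and 18.8 TPM in Gcnf_A, against 27.8 and 31.1 TPM in WT_A (-0.47 ± 0.14, limma adjusted p = 0.036), and was 37.6 and 36.4 TPM in Gcnf_P, against 27.3 and 32.6 TPM in WT_P (0.30 ± 0.14, adjusted p = 0.19). Both mutant libraries lay below both wild-type libraries in front and above them behind.

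Gli1, a transcription factor that is a direct readout of the pathway, was not called in front, at 18.1 and 20.6 TPM in Gcnf_A, against 22.9 and 18.1 TPM in WT_A (-0.07 ± 0.13, limma adjusted p = 0.72), and rose behind, at 51.6 and 50.7 TPM in Gcnf_P, against 31 and 28.8 TPM in WT_P (0.76 ± 0.13, adjusted p = 0.0083). Its difference of effects of -0.83 ± 0.18 did not pass (adjusted p = 0.084). Ptch1, the main receptor, passed in neither region (-0.21 ± 0.16, adjusted p = 0.38 in front, and 0.21 ± 0.16, adjusted p = 0.42 behind). The coreceptors Boc (1.18 ± 0.15, adjusted p = 0.0013) and Cdon (0.48 ± 0.10, adjusted p = 0.011) rose in front, and Boc (log2 difference 0.73, adjusted p = 0.02) and the secretion factor Scube2 (log2 difference 0.54, adjusted p = 0.03) rose behind.

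**Figure D5:**
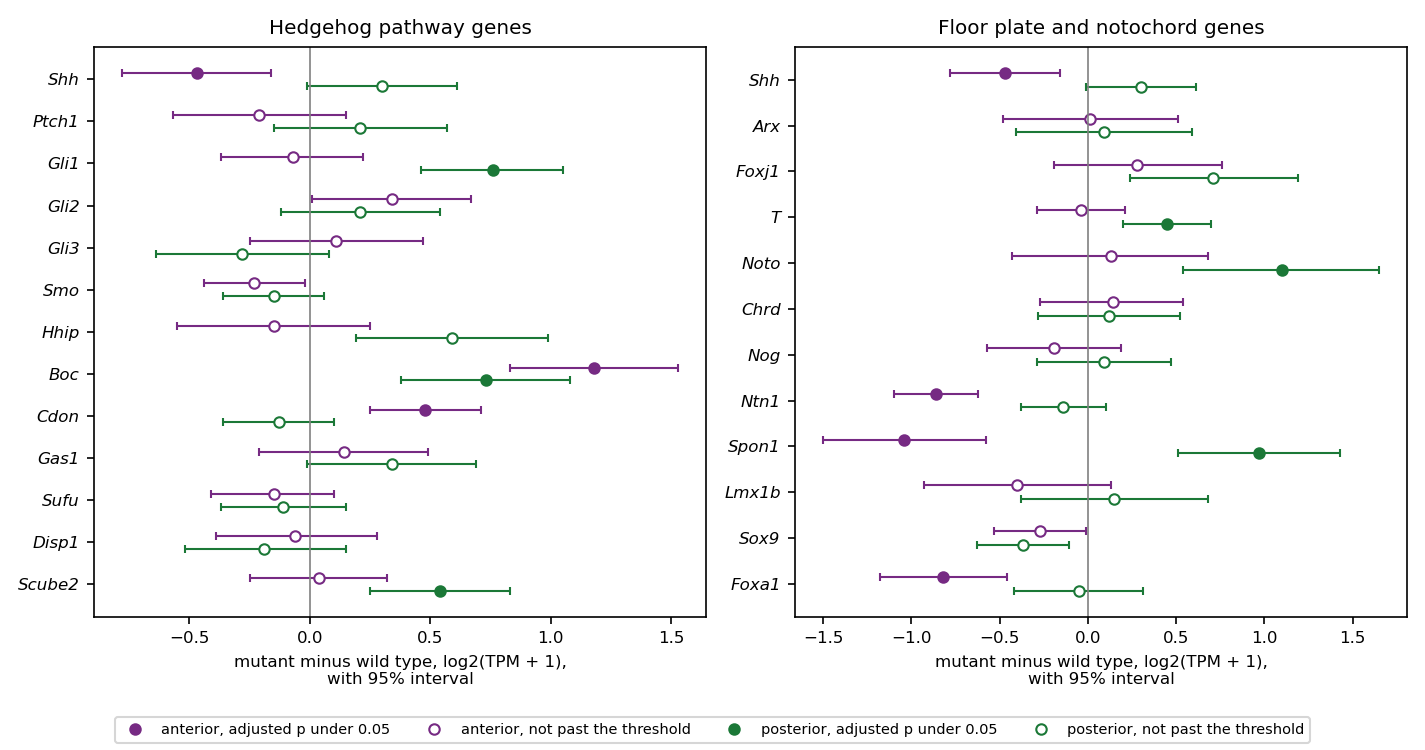
Genotype effect (mutant minus wild type, log2(TPM + 1) on the x axis, with 95% interval) on 13 of the hedgehog pathway genes and 12 floor plate and notochord genes, for the anterior and the posterior piece; filled points passed an adjusted p of 0.05. Spon1 is called below 0 in the anterior piece (-1.04) and above 0 in the posterior one (0.97).

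Of 12 floor plate and notochord genes, 0 rose and 4 fell in the anterior piece (median -0.23), where 10.2% of all genes fell, and 3 rose and 0 fell in the posterior piece (0.13), where 8.56% rose. Ntn1, a guidance cue made by the floor plate, had 35.6 and 34.5 TPM in Gcnf_A, against 67.9 and 61.2 TPM in WT_A (-0.86 ± 0.10, limma adjusted p = 0.00095). Spon1, the floor plate protein F-spondin, had 18.7 and 14.3 TPM in Gcnf_A, against 35.6 and 33.7 TPM in WT_A (-1.04 ± 0.20, adjusted p = 0.0079), and 32.7 and 22 TPM in Gcnf_P, against 11.6 and 15 TPM in WT_P (0.97 ± 0.20, adjusted p = 0.02), with a difference of effects of -2.01 ± 0.29 (adjusted p = 0.02). Foxa1, the paralogue of Foxa2 that is also expressed in endoderm, fell in front (-0.82 ± 0.16, adjusted p = 0.0075). Shh is in this list as well as in the pathway list. Noto (log2 difference 1.10, limma adjusted p = 0.024) and T (log2 difference 0.45, adjusted p = 0.034) also rose in the posterior piece. Apart from Spon1, no other gene of the list was called there. Which tissue of the posterior piece the RNA of Noto and T came from was not tested. The summed level of the 12 genes was 174 and 185 TPM in Gcnf_A against 258 and 260 TPM in WT_A. Behind, it was 407 and 356 TPM in Gcnf_P against 312 and 319 TPM in WT_P. T was the most abundant of the 12 behind and weighs most in these posterior sums. It had 170 and 147 TPM in Gcnf_P against 118 and 113 TPM in WT_P.

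Of 17 dorsal neural tube genes, 8 rose and 2 fell in front (median 0.31 beside 0.02 over all genes) and 6 rose and 1 fell behind (0.55 beside 0.05). More rises than falls is also the pattern of all genes in the fit reported, though not in front with quantile scaling. Pax3, a dorsal progenitor factor, had 48.4 and 55.2 TPM in Gcnf_A, against 23 and 26.6 TPM in WT_A (1.03 ± 0.11, limma adjusted p = 0.00058), whereas its relative Pax7 had 11.1 and 12.5 TPM in Gcnf_A, against 22.1 and 23.3 TPM in WT_A (-0.89 ± 0.13, adjusted p = 0.0025). Olig3, of the dorsal interneuron progenitors, a paralogue of Olig2, rose in both pieces (2.25 ± 0.28, adjusted p = 0.0011 in front and 1.47, adjusted p = 0.014 behind). These rises stood beside the rise of the neural progenitor genes given above.

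Among 16 paralogues of the 10 genes, 13 passed the filter; 4 rose and 3 fell in front (median 0.11), and 3 rose and 1 fell behind (-0.05). Olig1, the neighbour of Olig2, rose in front (2.11, limma adjusted p = 0.00052), at 5.26 and 6.01 TPM in Gcnf_A, against 0.444 and 0.627 TPM in WT_A. It also rose behind (1.66, adjusted p = 0.003), at 9.17 and 5.35 TPM in Gcnf_P, against 1.49 and 1.58 TPM in WT_P, and Olig2 rose in neither piece. Nkx2-1, the paralogue of Nkx2-2 made in ventral forebrain and foregut, fell in front (-1.79 ± 0.26, adjusted p = 0.0021). Irx4 fell (log2 difference -2.08, adjusted p = 0.00035) and Irx2 rose (log2 difference 1.04, adjusted p = 0.0016) in the same piece. Of 15 genes of ventral neurons 13 passed the filter. In front 3 rose and 2 fell (median -0.03), and behind 3 rose and 0 fell (-0.24). Lhx1 rose in front (log2 difference 1.73, adjusted p = 0.0016). Mnx1 of motor neurons, which is also in the pancreatic bud list below, fell in front (-0.87 ± 0.16, adjusted p = 0.006). Mnx1 was near the floor, with 4 reads in each Gcnf_A library (0.179 and 0.199 TPM). Each WT_A library had 25 reads of it (1.18 and 1.16 TPM).

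Retinoic acid, made by Aldh1a1, Aldh1a2 and Aldh1a3 and degraded by Cyp26a1, Cyp26b1 and Cyp26c1, is another signal to these progenitors. Of 14 genes of its pathway 2 rose and 4 fell in front (median -0.13) and 2 rose and 1 fell behind (0.00). Aldh1a2 fell in front, at 17.6 and 9.01 TPM in Gcnf_A, against 34.2 and 38.8 TPM in WT_A (-1.45 ± 0.24, limma adjusted p = 0.0038). Aldh1a3, the more abundant enzyme there, rose in front, at 118 and 145 TPM in Gcnf_A, against 39 and 46.9 TPM in WT_A (1.59 ± 0.15, adjusted p = 0.00035), and the scarce Aldh1a1 fell (log2 difference -0.66, adjusted p = 0.045). The synthesis enzymes thus did not move one way. Of the degrading enzymes only Cyp26a1 was called in front. It rose, at 63.2 and 86.7 TPM in Gcnf_A, against 22 and 20.4 TPM in WT_A (log2 difference 1.76, adjusted p = 0.00019). Cyp26c1, more abundant than Cyp26a1 in WT_A, had 53 and 100 TPM in Gcnf_A, against 157 and 87.3 TPM in WT_A. Its difference of -0.68 ± 0.44 did not pass (adjusted p = 0.3), nor did that of Cyp26b1 (0.27 ± 0.40, adjusted p = 0.68). Behind, Cyp26a1 fell (log2 difference -0.57, adjusted p = 0.041), and its difference of effects was 2.32 (adjusted p = 0.0033).

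The labelled regions were read against markers: 12 forebrain and eye genes summed to 31.8 and 33.3 TPM in the Gcnf_P libraries and 347 and 373 TPM in the Gcnf_A libraries, and to 39.9 and 41.2 TPM in the WT_P libraries and 376 and 425 TPM in the WT_A libraries. The 7 hindbrain segment genes ran the other way, at 142 and 151 TPM in Gcnf_P and 14.2 and 33.5 TPM in Gcnf_A, and at 165 and 174 TPM in WT_P and 9.6 and 26.2 TPM in WT_A. Of 12 forebrain and eye genes 11 passed the filter, 0 rose and 4 fell in front (median -0.14), and 1 rose and 3 fell behind (-0.10). Of 7 hindbrain segment genes none passed in limma in either region, with 0 of them at an unadjusted p under 0.05 in front and 2 behind. Of 9 visceral endoderm genes none passed in front (median -1.39, 2 at an unadjusted p under 0.05). Behind, 1 of them, Apoa4, fell (log2 difference -2.89, limma adjusted p = 0.046), and the median of the 9 was -2.04. The 2 Gcnf_P libraries differed widely in these genes. Apoa4 had 1.28 and 15 TPM in Gcnf_P, against 48.9 and 39.2 TPM in WT_P. The 9 genes summed to 273 and 1318 TPM in Gcnf_P, against 2716 and 2241 TPM in WT_P. The cause of this spread was not tested. Of 7 pancreatic bud genes 4 passed the filter, with 1 fall in front, of Mnx1, and 1 rise behind, of Ptf1a. Ptf1a was near the floor and passed the filter only through Gcnf_P, where it had 1.19 and 2.2 TPM (27 and 29 reads). It had 0 reads in both WT_P libraries, so its call rests on the group where it was high. Of 13 definitive endoderm genes Sox17 rose (log2 difference 0.98, limma adjusted p = 0.019) and Nkx2-3 fell (log2 difference -1.08, adjusted p = 0.046) behind, and the median was -0.14. Of 7 primitive blood genes 5 rose in front (median 2.05) and 4 rose behind (median 1.83).

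By Pearson r of log2(TPM + 1) over the 8 libraries, which share region, genotype and depth, the genes most like each of the 10 were read as a description. Foxa2 was most like Nkx6-1 (r = 0.926), both being lowest in the 2 Gcnf_A libraries. Olig2 was most like Aldh1a2 (0.984), both high in the posterior libraries. Nkx6-2 was most like Cdh22 (0.984) and Wnt7b (0.960), and Wnt7b had 13.9 and 19.6 TPM in Gcnf_A, against 38.1 and 39 TPM in WT_A. Dbx1 was most like Stum (0.984), Rims3 (0.982) and Stmn2 (0.981), and Pax6 most like Wasf3 (0.992), Syt11 (0.992) and Efnb2 (0.991). Nkx2-9 was most like Amigo3 (0.967), Nkx2-2 like Slitrk1 (0.971), Nkx6-1 like Adam12 (0.957), Irx3 like Pnpla3 (0.951) and Dbx2 like Misp (0.954).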

How the data were processed

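Poly-A RNA of whole anterior or posterior pieces of mouse embryos was sequenced in 8 libraries. Per the labels' protocols, pieces went into RNAlater before column extraction, and the TruSeq libraries were made without marking strand. CASAVA 1.8.2 and STAR were used with mm10, per the submitters' processing notes; the annotation, the STAR release and the counter were not given in the sources used here. TPM values were deposited by the authors as 1 table with 55421 Ensembl gene identifiers and 1 column per library, each summing to 1000000.

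Names, coordinates and exon lengths came from GENCODE M21 on the same build, which matched 55154 identifiers. TPM multiplied by exon length came out as a whole number of reads (tolerance 0.01 read) in 98.8% to 98.89% of values above 0, and these reads were used only to state depth. Library sizes set how precise each value is: 27061599 to 52952690 reads in genes. Promoters came from RefSeq tables (GRCm38.p6), and all 10 genes were matched.

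The 16699 genes that reached 1 TPM in 2 or more libraries were fitted as log2(TPM + 1) with limma 3.58.1 in R 4.3.3: 4 group means, a mean-dependent trend of the spread, 4 residual and 4.68 prior degrees of freedom, two-sided tests and Benjamini-Hochberg adjustment over all tested genes in each of 5 contrasts. A pseudocount of 1 understates changes of low genes. The fit was tested on simulated data. The contrasts were mutant minus wild type in each region, the difference of these effects (anterior minus posterior), and posterior minus anterior in each genotype. The text names all 10 genes in each contrast, up to 4 genes with the smallest p from each of 13 other gene lists in a contrast, genes whose levels are given beside those, Nr6a1, and the 3 protein genes with the highest correlation with each of the 10. The 10 genes and the lists were chosen with earlier results of these data known. Some genes that this rule takes are counted in their lists but not reported here by name. Alternatives were other pseudocounts, filters, scalings and spread models, left-out libraries, the compared groups alone and a replicate block.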

Additional observations from a re-analysis of the deposited data

Results flagged for a closer look

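For 3 of the 10 genes the effect of genotype differed between the anterior and the posterior piece by the test of the difference itself (limma, Benjamini-Hochberg over 16699 genes). Nkx6-1 differed by -1.60 on the log2 scale, Nkx6-2 by -1.47 and Dbx1 by 1.35, anterior minus posterior. Each kept its direction under all 20 alternatives, and its call was lost in 11 of them for Nkx6-1, 10 for Nkx6-2 and 8 for Dbx1.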

How the results depend on the processing

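The 10 genes were refitted under up to 21 alternatives per contrast, giving 1010 values, of which 849 kept their direction and their side of the threshold, 94 lost a call, 34 gained one and 33 changed sign.

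Leaving out 1 library at a time, the number of the 10 genes called was 3 to 8 for the anterior effect (6 in the fit reported), 0 to 1 for the posterior effect (2), 0 to 3 for the difference (3), 4 to 6 between mutant regions (6) and 3 to 6 between wild-type regions (5). Without both libraries numbered 153 it was 1, 0, 0 and 1 for the anterior effect, posterior effect, difference and wild-type regions. Without both numbered 159 it was 0 for the posterior effect and the difference. For the posterior effect it was 0 with no filter, no trend, library weights or the 2 groups alone, and 1 with median-of-ratios or quantile scaling. For the difference it was 0 with no filter and 1 with median-of-ratios scaling.

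Scaled to Sox1, Sox2 and Sox3, the sign changed for Pax6 in front (-0.008), for Pax6 (-0.167), Olig2 (-0.125) and Irx3 (-0.311) behind, between mutant regions for Pax6 (0.207), Nkx6-2 (0.740) and Irx3 (0.586), and between wild-type regions for Pax6 (0.366), Nkx2-2 (0.189), Nkx2-9 (0.301), Nkx6-1 (0.947), Dbx1 (0.571), Irx3 (1.155) and Foxa2 (1.266). Without both 153 libraries it changed for Irx3 behind (-0.070) and Irx3 (0.057) and Foxa2 (0.158) between wild-type regions. Without both 159 libraries it changed for Olig2 behind (-0.006) and for the differences of Pax6 (-0.009) and Dbx2 (-0.293). It changed for Dbx2 between mutant regions under quantile scaling (-0.025) and Foxa2 between wild-type regions under median-of-ratios scaling (0.046). Apart from Pax6 in both region effects and Nkx2-2 and Dbx1 between wild-type regions, none of these was called in the reported fit. The cause of these changes was not tested.

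With 1 library left out, sign changes gave ranges of -0.561 to 0.156 for Dbx2 in front, -0.006 to 0.582 for Olig2, -0.209 to 0.124 for Foxa2, -0.070 to 0.274 for Irx3 and -0.252 to 0.084 for Nkx2-2 behind, -0.048 to 0.669 for the difference of Dbx2, -0.253 to 0.463 for Dbx2 between mutant regions, and -0.321 to 0.023 for Irx3 and -0.205 to 0.128 for Foxa2 between wild-type regions. None was called in the reported fit.

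Deviations of libraries with the same number in both regions correlated at 0.136 for mutant and 0.022 for wild-type libraries over 16699 genes. With 2 libraries per group, this weak correlation cannot show that the numbers are not pairs. Mutant libraries of 1 number had the same sex in both regions. Their primitive blood genes summed to 43654 and 43828 TPM for number 159, and to 25370 and 22062 TPM for number 163. The fit reported did not use the numbers as pairs, whereas the replicate block does. With a replicate block, 2, 6 and 6 of the 10 genes were called for the difference, mutant regions and wild-type regions, and 115, 2617 and 2404 of all genes, where the fit without it called 169, 2690 and 2422. The 2 differences were Dbx1 and Nkx2-9; Nkx6-1 and Nkx6-2 lost their calls (0.064 each), and Nkx2-9 gained one between wild-type regions. The genotype effects share no numbers.

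Over all genes, calls were 1919 for the posterior effect (74.5% of them higher), against 2510 (55.2%) with median-of-ratios and 2276 (53.9%) with quantile scaling, 954 with no filter, 1102 with library weights and 934 with the 2 groups alone. The difference gave 169, against 55 with no filter and 338 with the Sox scaling. Without both 153 libraries, calls were 478 in front, 79 behind and 0 for the difference. Nkx2-2 and Dbx2, with as few as 14 and 13 reads in a library, are limited by depth.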
